A study of Mus musculus with 24 samples.

Results

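The CD3 complex and the first steps of T cell receptor (TCR) signalling were followed in pancreatic islets of the NOD mouse, a model of autoimmune diabetes, at 4 ages. The genes were taken by name: the CD3 chains Cd3d, Cd3e and Cd3g, the zeta chain gene Cd247, the kinases Lck and Zap70 and the adaptor Lat. Every noncontrol probe of the arrays that carried one of these names, or its RefSeq accession, was a member. This gave 7 genes of 28867 distinct gene or transcript names on the array, and 10 probes of 41174 noncontrol probes, and 8 of the 10 were bright enough to be tested, with at least 1 for each gene.

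Each of the 24 two-colour arrays set the islet RNA of 1 female NOD/LtJ mouse, labelled with Cy5, against a pool of 6 female NOD.B10Sn-H2b/J (NOD.B10) mice of the same age, labelled with Cy3. NOD.B10 mice have the NOD background with a different MHC (major histocompatibility complex) haplotype, H2b. There were 6 NOD mice at each of 10 days, 4 weeks, 12 weeks and 20 weeks, and the labels were read as 1 pool per age, so a ratio against 0 leaves out the spread among control animals. The mice carried no transgene and had received no treatment that the labels name. All values below are log2(NOD/pool), above 0 where NOD islets gave more signal, unless a sentence names another scale, with errors as the SD over 6 mice. Since all arrays had the same dye orientation, a dye effect on a probe remains in the ratio of an age and drops out of a difference between ages, while a difference between the pools remains in both. A probe was called when its adjusted p was under 0.05 and its change at least 2-fold.

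Islets are clusters of endocrine cells that hold few T cells in health. On T cells the clonal TCR chains recognise antigen but have short tails, and the signal is passed on by the CD3 chains and the zeta chain, whose tails carry paired tyrosines in immunoreceptor tyrosine-based activation motifs (ITAMs). Lck, held near the receptor by the coreceptors CD4 and CD8, phosphorylates the ITAMs, Zap70 docks on them, and Zap70 then phosphorylates Lat, the membrane scaffold on which the downstream complexes form. In NOD mice T cells enter the islets over the first months of life. In RNA from whole islets, fewer cells of a type and less RNA per cell cannot be told apart.

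The probes are 60 bases long, and those that read coding sequence or the odd transcript are shown here because their position bears on how the probes of 1 gene compare. Capitals mark, in a reading frame without a stop, codons for a tyrosine, any 2 residues and a leucine or isoleucine, the repeat unit of an ITAM, found by script; no overlapping match is marked. Sequences are those of the scanner files, 5′ to 3′, with the files' mm9 coordinates.
Cd3d A_51_P285206, chr9:44794171-44794402, plus strand: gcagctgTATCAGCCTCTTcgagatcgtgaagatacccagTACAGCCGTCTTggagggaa
Cd3g A_51_P260889, chr9:44781716-44782300, minus strand: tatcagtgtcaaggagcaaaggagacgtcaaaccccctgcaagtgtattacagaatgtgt
Cd247 A_52_P173555, chr1:167786567-167787585, plus strand: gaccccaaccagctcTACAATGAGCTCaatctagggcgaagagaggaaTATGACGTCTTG
Zap70 A_51_P327141, chr1:36838210-36838269, plus strand: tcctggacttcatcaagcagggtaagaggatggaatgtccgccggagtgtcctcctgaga
Lat A_51_P495242, chr7:133507719-133507778, minus strand: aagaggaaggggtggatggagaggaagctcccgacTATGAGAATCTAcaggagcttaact
Cd3e A_52_P86404, chr9:44811984-44812043, minus strand: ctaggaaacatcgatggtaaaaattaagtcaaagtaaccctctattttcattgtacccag
The Cd3d and Cd247 probes each held 2 such units in the same frame, and the Lat probe held 1. The genomic span of the first 3 probes is longer than 60 bases, 232, 585 and 1019 bases, so each crosses at least 1 intron. The Cd3e probe A_52_P86404 was designed on a cDNA that the files describe as a retained intron, and none of its frames was open. No frame of the other Cd3e probe, A_51_P455681, was open either, so neither lies wholly in coding sequence. The probes not printed are given by position: Lck A_51_P141288 at chr4:129225846-129225905, Cd3e A_51_P455681 at chr9:44807254-44807313, and Cd247 A_52_P75298 (zeta variant) and A_51_P431364 (eta variant) at chr1:167791855-167791914 and chr1:167797296-167797355.

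At 12 and 20 weeks most of the 7 genes, though not Cd3e, were called higher in NOD islets than in the pools, and at 10 days and 4 weeks none of the 8 tested probes was called (3.25% and 2.29% of all 25910 tested probes were, in either direction). At 12 weeks 4 of the 8 were called higher (Cd3d, Lck, Cd3g and Lat), where 1.7% of all probes were. At 20 weeks 6 of the 8 were called higher, with 1 Cd247 probe and Zap70 added, where 3.23% of all probes were. No member was called lower at any age, where 1.15% of all probes were at 12 weeks and 0.98% at 20 weeks. Over the brightest probe of each of the 7 genes the median ratio at the youngest to the oldest age was 0.11, -0.10, 1.78 and 2.25, beside medians over all genes of 0.012, -0.007, 0.027 and -0.004. In either channel Zap70 and the brighter Cd247 probe were above background on 18 of 24 arrays and the dimmer tested Cd247 probe on 11, 10 of these at 12 and 20 weeks, while Cd3d, Cd3g, Cd3e, Lck and Lat were above it on all 24.

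**Figure D1:**
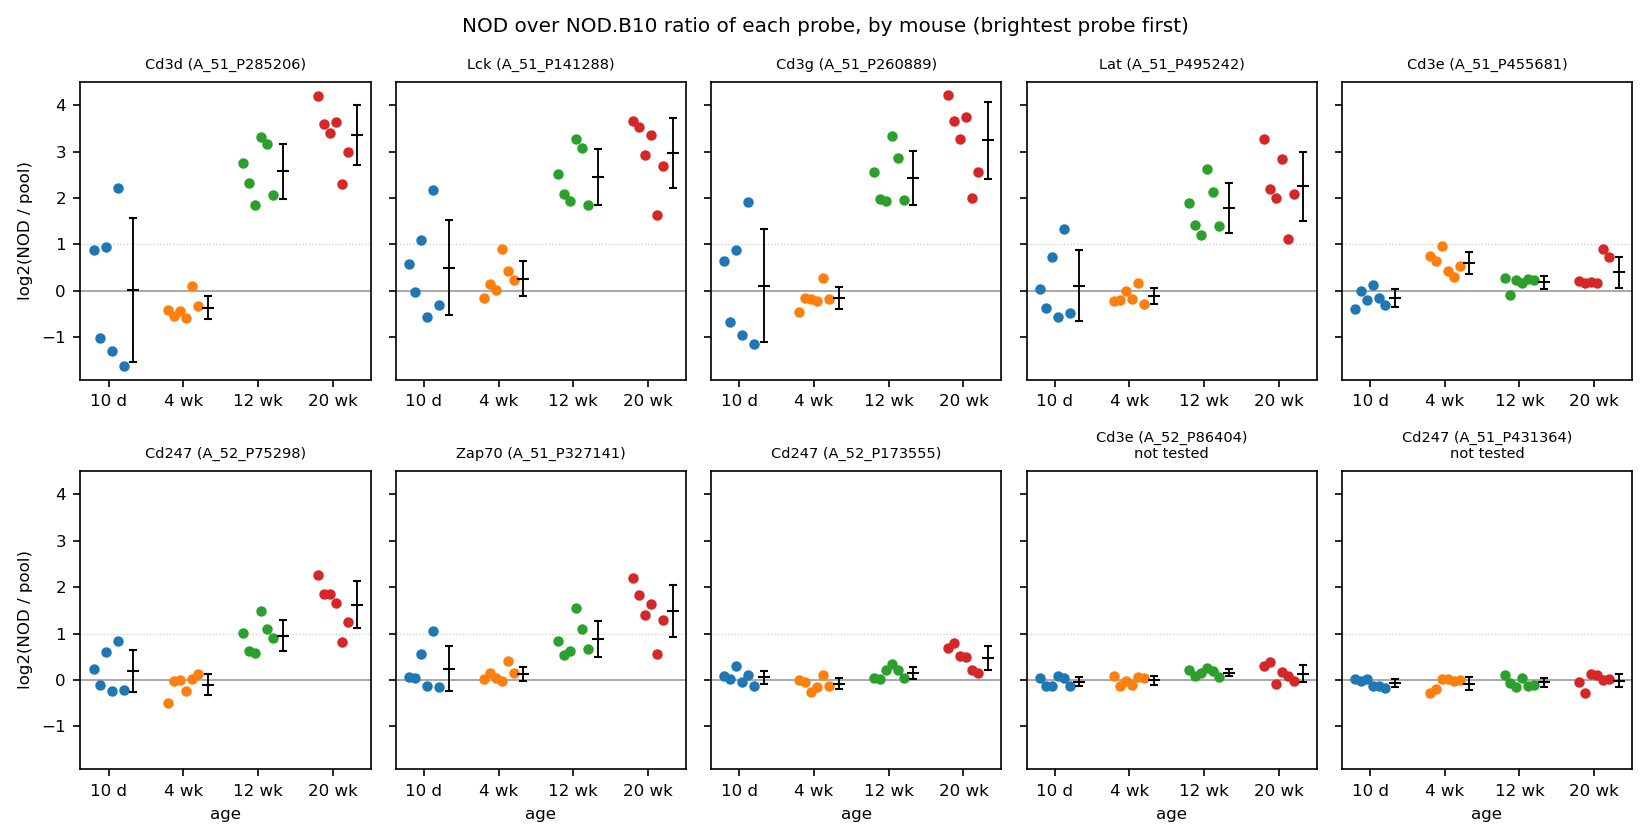
Log2(NOD/pool) of each of the 10 probes (vertical axis) at the 4 ages (horizontal axis). Each point is 1 mouse, the bar beside it the mean ± SD (n = 6), the grey line 0 and the dotted line 2-fold; at 20 weeks the Cd3d mice lie between 2.31 and 4.20, and at 4 weeks between -0.59 and 0.11.

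The arrays differed in brightness. Of noncontrol spots, 43.2% to 65.4% stood well above background for the NOD mice and 40.2% to 61.1% for the pools, with the 12 week pool lowest at 40.2% to 44.4% and 20 week replicate 5 lowest among NOD mice. No slide held all ages: 4 of the 6 slides held 1 age, 1 held 10 day and 4 week mice, and 1 held 12 and 20 week mice. The marker genes of pancreatic cells differed too, and whether islet purity did was not tested. All 8 beta cell genes were called lower at 20 weeks (1.23% of all genes), and all 6 acinar genes were called higher at 4 weeks (1.9%). All 4 genes of the other endocrine cells were called higher at 10 days, where 3.25% of all probes were called in either direction. The part of these genes in the ratios below was not tested.

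Cd3d encodes the delta chain of CD3. Its ratio over the 6 mice ran from -0.59 through a median of -0.42 to 0.11 at 4 weeks, from 1.85 through 2.54 to 3.32 at 12 weeks, and from 2.31 through 3.50 to 4.20 at 20 weeks. The 4 week mice and the 12 week mice did not overlap, as was so for 23% of all probes in that contrast, while the 12 and 20 week mice, which were apart for 11.4% of all probes, overlapped. The mean was 2.58 ± 0.60 at 12 weeks (5.97-fold, adjusted p = 4.41e-06) and 3.36 ± 0.64 at 20 weeks (10.3-fold, adjusted p = 7e-08). In background-subtracted spot intensity, the median at 4, 12 and 20 weeks was 11.5, 1580 and 1100 in NOD mice and 47.6, 41.6 and 75.1 in the pools. At 4 weeks the NOD signal was thus below that of the pool in the raw intensities, and was above background on 1 of 6 NOD arrays and 6 of 6 pool arrays. The 2 dyes are not on 1 scale in these intensities. A Cd247 probe that was never above background, A_51_P431364, had 4 week medians of 3.33 in NOD mice and 6.3 in the pool. The 4 week ratio of Cd3d was -0.37 ± 0.25 (adjusted p = 0.398), and on the scanner software's own log ratio it was -1.91 and called lower (adjusted p = 0.011).

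Cd3g encodes the gamma chain and lies next to Cd3d in the genome, on the opposite strand. Its ratio at 4 weeks ran from -0.45 through -0.17 to 0.28, at 12 weeks from 1.93 through 2.27 to 3.33, and at 20 weeks from 2.00 through 3.46 to 4.22. As for Cd3d, no 12 week mouse reached down to the 4 week mice, and the 20 week mice overlapped those of 12 weeks. The mean was 2.44 ± 0.58 at 12 weeks (5.41-fold, adjusted p = 2.03e-06) and 3.24 ± 0.82 at 20 weeks (9.47-fold, adjusted p = 2.39e-08). The median NOD intensity at these 3 ages was 10.9, 987 and 850, beside 28.6, 14.9 and 55.8 in the pools.

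Cd3e encodes the epsilon chain, which pairs with both delta and gamma, and neither of its probes was called at any age. The probe designed on its RefSeq transcript, A_51_P455681, was above background in both channels on all 24 arrays. The ratio of this probe was -0.16 ± 0.20 at 10 days and 0.60 ± 0.24 at 4 weeks. In the older mice it was 0.18 ± 0.13 (12 weeks) and 0.40 ± 0.33 (20 weeks). The 4 week ratio was above 0 in 6 of 6 mice, as for 20.2% of all probes (adjusted p = 2.06e-05), and stayed under 2-fold at 1.52; with a background offset of 1 in place of 50 it was 1.07, and on the scanner log ratio 1.41, and both were called. At 20 weeks the 4 mice numbered 1 to 4 lay between 0.17 and 0.22, and replicates 5 and 6 stood apart at 0.90 and 0.73. Those 2 mice also had the highest mean ratio of the acinar genes at that age, 2.13 and 1.61, where the other 4 lay between -2.32 and -0.12.

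The retained-intron probe of Cd3e was above background in NOD islets on 4 of 24 arrays and never in the pools, and it was not in the test. Its mean ratio lay between -0.04 and 0.16 at the 4 ages. A fit that kept dim probes gave 0.16 at 12 weeks (adjusted p = 0.0183) and 0.14 at 20 weeks (adjusted p = 0.0317), both far under 2-fold.

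Cd247 encodes the zeta chain, which carries 3 ITAMs, and a spliced eta form that differs from zeta at its C-terminal end. It had 3 probes. The probe assigned to the zeta variant, A_52_P75298, ran from -0.50 through -0.02 to 0.13 at 4 weeks, from 0.59 through 0.96 to 1.49 at 12 weeks and from 0.82 through 1.76 to 2.26 at 20 weeks. The 4 and 12 week mice were again apart. Its mean was 0.95 ± 0.34 at 12 weeks (1.93-fold, adjusted p = 4.34e-05, under the 2-fold floor) and 1.62 ± 0.51 at 20 weeks (3.07-fold, adjusted p = 2.47e-08). The 12 week value turned on single mice, since without replicate 2 or without replicate 3 it was 1.02 or 1.03 and called.

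The probe A_52_P173555, which the files assign to the eta variant by accession and which holds the pair of capitalised units above, lies upstream of the zeta probe, and that it reads eta alone was not tested. It was never above background in the pools and was above it in 11 NOD arrays, 6 of them at 12 weeks and 4 at 20 weeks. It passed the filter of 6 arrays only through the NOD mice of 12 and 20 weeks. Its adjusted p at these ages and its F test are therefore not independent of that filter. Its ratio at 20 weeks was 0.47 ± 0.26 (adjusted p = 7.51e-06, above 0 in 6 of 6 mice, as for 16.9% of all probes). With the pool below background, the bounds were at least 1.39-fold at 20 weeks and at least 1.11-fold at 12 weeks, the folds of the ratios themselves. At 20 weeks the mice numbered 1 to 4 lay at 0.49 to 0.80 and replicates 5 and 6 at 0.22 and 0.14. The pair that was highest for Cd3e was thus lowest here, but its NOD spots were not above background. The other probe with an eta accession, A_51_P431364, was not above background in either channel on any array, and its mean ratio stayed between -0.08 and -0.01.

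Lck, the kinase that phosphorylates the ITAMs, was above background in both channels on every array. Its ratio ran from -0.15 through 0.19 to 0.91 at 4 weeks, from 1.85 through 2.30 to 3.27 at 12 weeks and from 1.63 through 3.14 to 3.67 at 20 weeks. No 12 week mouse lay below the highest 4 week mouse. The mean was 2.45 ± 0.60 at 12 weeks (5.47-fold, adjusted p = 5e-07) and 2.97 ± 0.75 at 20 weeks (7.85-fold, adjusted p = 2.09e-08).

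Zap70, the kinase that binds phosphorylated ITAMs, gave dim spots. It was above background on 1 NOD array of 6 at 4 weeks and on all 6 at 12 and at 20 weeks, and in the 12 week pool on none. Its ratio was 0.89 ± 0.38 at 12 weeks (adjusted p = 1.73e-04), a bound of at least 1.85-fold and not called, and 1.49 ± 0.55 at 20 weeks (2.81-fold, adjusted p = 1.46e-07). At 20 weeks the mice ran from 0.57 through 1.52 to 2.19, all above 0, as for 16.9% of all probes. The 4 week mice, of which the highest was 0.40, did not overlap the 12 week mice, as was so for 23% of all probes.

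Lat, the adaptor that Zap70 phosphorylates, ran from -0.29 through -0.18 to 0.17 at 4 weeks, from 1.21 through 1.65 to 2.63 at 12 weeks and from 1.11 through 2.14 to 3.28 at 20 weeks. The 4 week mice lay below all 12 week mice, and these 2 ages were apart for 23% of all probes. The mean was 1.78 ± 0.54 at 12 weeks (3.43-fold, adjusted p = 3.33e-06) and 2.25 ± 0.75 at 20 weeks (4.76-fold, adjusted p = 7.63e-08). Like Cd3d and Cd3g, it was above background on 1 of 6 NOD arrays and 6 of 6 pool arrays at 4 weeks.

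The differences between ages, in which a dye effect drops out, were tested in the same model. From 4 to 12 weeks 5 of the 8 probes rose, where 2.41% of all probes did. Cd3d rose by 2.95 (SE 0.49, adjusted p = 1.27e-04), Cd3g by 2.59 (SE 0.44, 1.46e-04), Lck by 2.19 (SE 0.40, 2.68e-04) and Lat by 1.89 (SE 0.33, 1.99e-04). Cd247 A_52_P75298 rose by 1.06 (SE 0.22, adjusted p = 8.45e-04), a call that was lost without 4 week replicate 1 (0.98) or without 12 week replicate 4 (0.95). The Zap70 difference of 0.76 (SE 0.23, adjusted p = 0.012) was under 2-fold, and Cd3e A_51_P455681 differed by -0.42 (SE 0.13, adjusted p = 0.0158).

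Between 12 and 20 weeks no member was called (1.66% of all probes were called higher). The differences of the 6 probes called at 20 weeks lay between 0.47 and 0.81, and their sign depended on the scaling. With each array centred on its median in place of loess, the 12 week to 20 week difference was -0.81 for Lck, -0.49 for Cd3g, -0.60 for Cd3d, -0.61 for Lat, -0.01 for Zap70 and -0.02 for Cd247 A_52_P75298, beside a median over all probes of -0.59. On the scanner log ratio it was -0.30 for Lck, -0.04 for Lat and -0.31 for Zap70, and 0.52 for Cd3d, 0.38 for Cd247 A_52_P75298 and 0.08 for Cd3g, beside a median over all probes of -0.21. Within the slide that held both ages (2 mice each) the differences with loess were 1.15 for Lck, 1.53 for Cd3g, 1.28 for Cd3d, 0.97 for Lat, 1.13 for Zap70 and 1.06 for this Cd247 probe. In a limma fit of both ages with slide as a fixed block, which rests on these mice, none was called (adjusted p from 0.114 for Zap70 to 0.346 for Lat). Without 20 week replicates 5 and 6, 1 probe was called, Cd3g at 1.29.

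From 10 days to 20 weeks the same 6 probes that were called at 20 weeks were called higher, where 6.28% of all probes were. The differences were 3.34 for Cd3d (SE 0.49, adjusted p = 5.41e-06), 3.13 for Cd3g (SE 0.44), 2.48 for Lck (SE 0.40), 2.14 for Lat (SE 0.33), 1.43 for Cd247 A_52_P75298 (SE 0.22) and 1.24 for Zap70 (SE 0.23). The mice of the 2 ages were apart for Cd3d and Cd3g (and for 24.6% of all probes) and overlapped for the other 4. From 10 days to 4 weeks none of the 8 was called, where 7.33% of all probes were in either direction. All 8 probes passed the moderated F test for any difference among ages, as did 73.1% of all probes.

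The NOD channel was also compared between ages on its own, after loess and scaling between arrays. From 4 to 12 weeks 6 of the 8 probes were called higher, where 3.52% of all probes were: Cd3d by 4.33 (SE 0.55), Cd3g by 3.74 (SE 0.43), Lck by 3.25 (SE 0.42), Lat by 2.99 (SE 0.38), Cd247 A_52_P75298 by 1.93 (SE 0.28) and Zap70 by 1.63 (SE 0.26). From 12 to 20 weeks none was called (0.181% higher and 0.0965% lower over all probes), with differences from -0.68 for Lat to -0.07 for Cd247 A_52_P173555. From 10 days to 4 weeks Cd3d alone was called, with a difference of -1.48 (SE 0.55, adjusted p = 0.0495, 1.09% of all probes called lower), and the call was lost in most fits that left out 1 mouse. From 10 days to 20 weeks 6 of the 8 were called higher (2.86% of all probes), of which Zap70 (1.05) was lost without any 1 of 10 day replicates 2, 4 or 6 or of 20 week replicates 1 or 2, at 0.92 to 0.97.

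**Figure D2:**
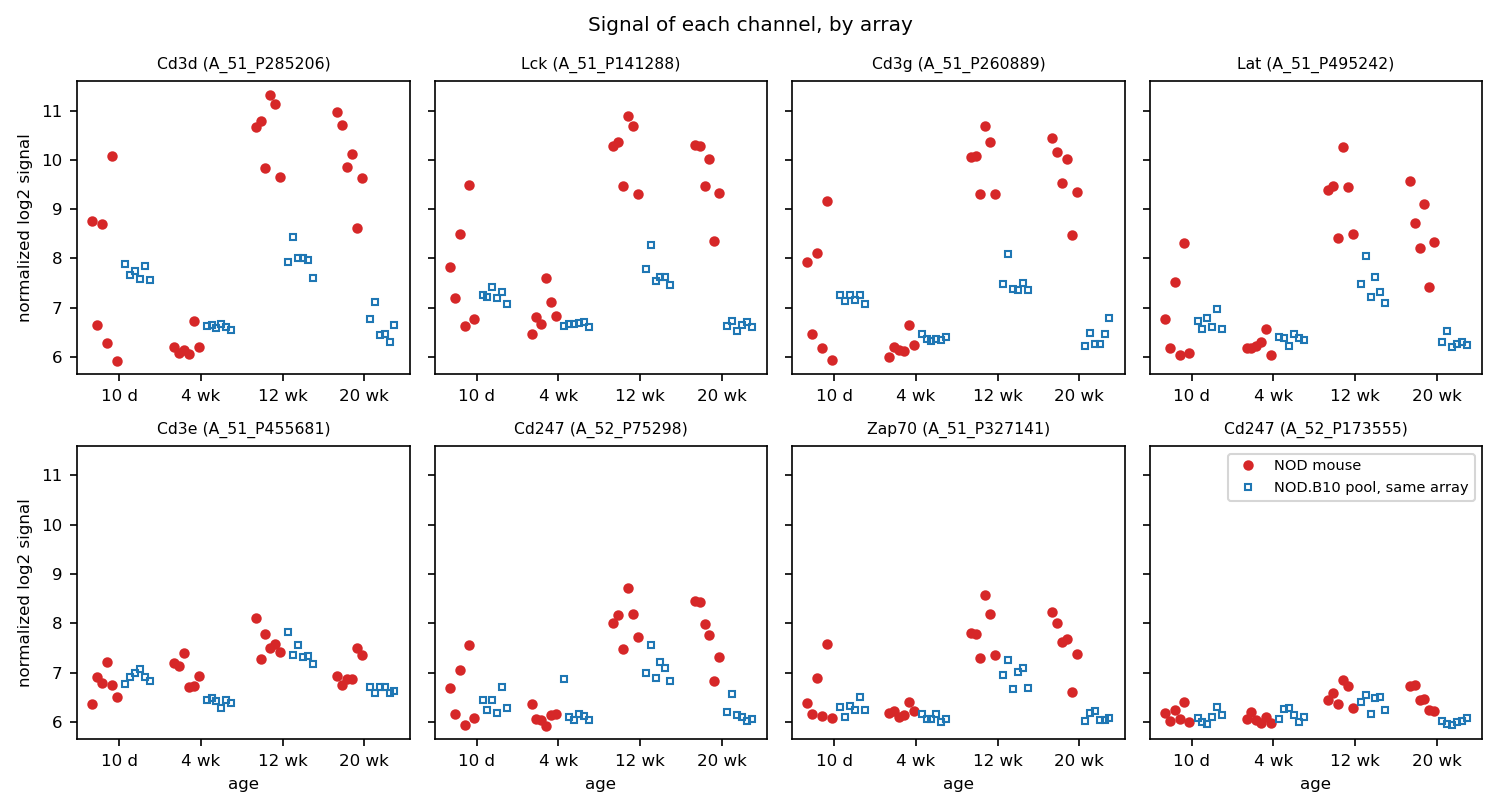
Normalized log2 signal (vertical axis) of the 8 tested probes by age (horizontal axis), with a filled circle for each NOD mouse and an open square for the pool on the same array. For Cd3d the means at 4, 12 and 20 weeks are 6.24, 10.57 and 9.99 in NOD mice and in the pool 6.61, 7.99 and 6.63.

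The pool itself was not level in this scale. For Cd3d its mean normalized log2 signal was, from the youngest to the oldest age, 7.71, 6.61, 7.99 and 6.63, and for Lck 7.25, 6.66, 7.71 and 6.65. With 1 pool per age these are values without a test. The background-subtracted pool intensity did not follow the same order: for Lck its median was 70.2, 59.5, 23.4 and 80, lowest at 12 weeks, the age with the dimmest pool arrays. For Cd3d the median pool intensity was 47.6 at 4 weeks and 41.6 at 12 weeks, beside normalized values of 6.61 and 7.99. The 12 week ratios thus rest on dim pool spots, and their size also depended on the scaling. For Lck the 12 week ratio was 2.45 with loess, 3.41 with median centring and 4.13 on the scanner log ratio. Why the normalized pool values were highest at 12 weeks was not tested.

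At 10 days the 6 NOD mice fell on both sides of the pool. For Cd3d the ratios were 0.87, 0.95 and 2.22 in replicates 1, 3 and 5, and -1.02, -1.31 and -1.63 in replicates 2, 4 and 6, with NOD intensities of 802, 325 and 4030 against 33.9, 21.8 and 39.4 and a pool between 108 and 129. Replicates 1, 3 and 5 were also the 3 highest for Cd3g (0.65, 0.87 and 1.92), Lck (0.58, 1.09 and 2.18), Lat (0.03, 0.73 and 1.33), Zap70 (0.07, 0.57 and 1.06) and Cd247 A_52_P75298 (0.24, 0.61 and 0.84). Replicate 5 was the highest for each of these 6 probes. The mean at 10 days was therefore near 0 with a wide spread, such as 0.01 ± 1.55 for Cd3d, which was the widest SD of that probe at any age.

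The same 3 mice were highest for the B cell, macrophage and NK cell lists. The mean ratio of the 6 measured B cell genes was -0.08, -0.22 and 0.13 in replicates 1, 3 and 5 and -0.79, -0.98 and -1.18 in replicates 2, 4 and 6. For 7 macrophage genes these were 0.45, -0.24 and 0.19 against -1.08, -1.24 and -1.25, and for 5 NK cell genes 0.18, 0.11 and 0.52 against -0.42, -0.43 and -0.56. The mast cell and platelet mean leaned the same way over a narrow range (-0.10, -0.13 and -0.07 against -0.13, -0.28 and -0.31), with replicates 2 and 3 level. The mean of the 2 measured genes of the thymocyte list (-0.75, -0.47 and -0.45 against -0.58, -0.48 and -0.72) did not set these mice apart. The beta cell mean leaned the same way without setting these mice apart (1.87, 1.12 and 1.75 against 0.45, 0.39 and 1.50). So did the mean of other endocrine genes (2.55, 3.11 and 2.78 against 1.81, 1.24 and 2.91). The acinar mean did not lean this way (-1.06, 0.60 and 0.13 against 0.91, 1.24 and 0.41). Of NOD spots, 61.3%, 54.4% and 63.6% stood well above background in replicates 1, 3 and 5. In replicates 2, 4 and 6 it was 49.9%, 53.2% and 60.5%. By the headers, replicates 1, 3 and 5 were hybridised at positions 1, 3 and 1 of their slides and replicates 2, 4 and 6 at positions 2, 4 and 2. Odd and even position therefore cannot be told apart from these groups of mice at 10 days. The part of position, array brightness, endocrine cell content and leukocyte content in the 10 day split was not tested.

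**Figure D3:**
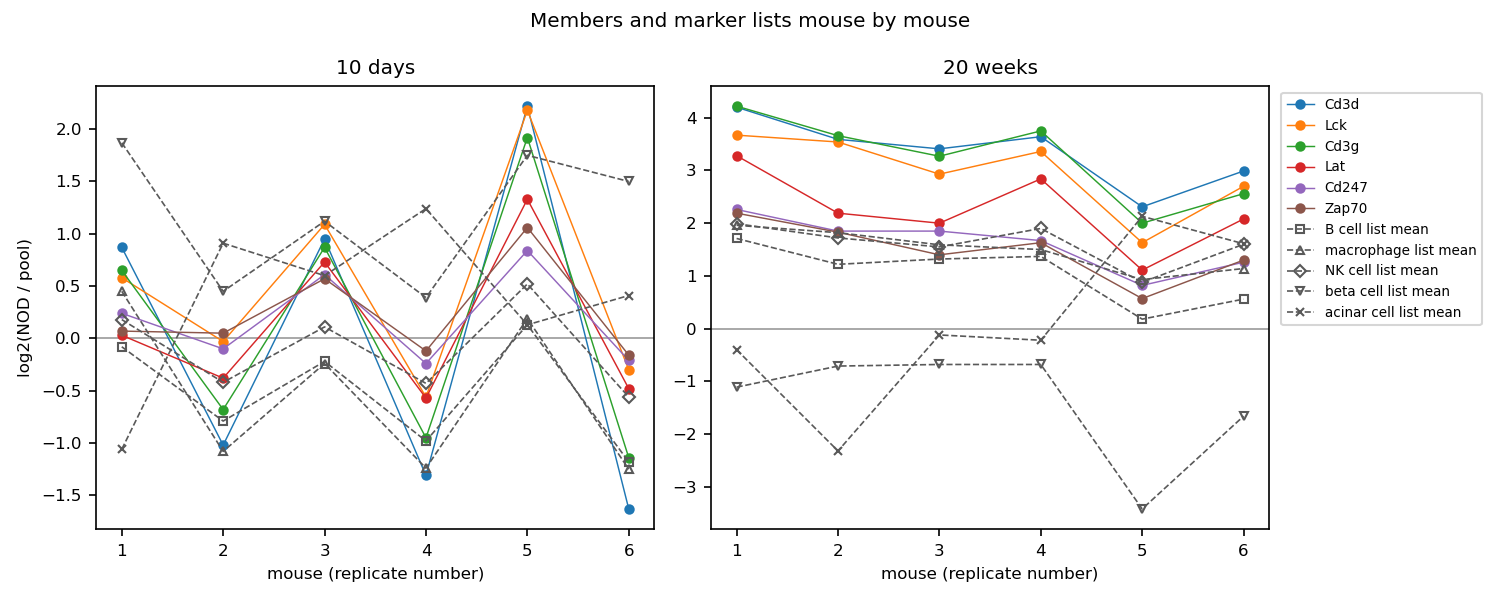
Log2(NOD/pool) of 6 member probes (coloured, solid) and mean ratio of 5 marker lists (grey, dashed) in each of the 6 mice (horizontal axis, replicate number) at 10 days and 20 weeks. Lines only join the values of 1 probe or list and the mice have no order; at 10 days mice 1, 3 and 5 are the highest for each member shown, and at 20 weeks mouse 5 is the lowest, at 2.31 for Cd3d beside a beta cell mean of -3.42.

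At 20 weeks several members ordered the mice alike at both ends. Replicate 1 was highest for Cd3d (4.20), Cd3g (4.22), Lck (3.67), Lat (3.28), Zap70 (2.19) and Cd247 A_52_P75298 (2.26), and replicate 5 was lowest for all 6 (2.31, 2.00, 1.63, 1.11, 0.57 and 0.82). Replicate 5 was the dimmest NOD array, with the lowest beta cell mean (-3.42, where the other 5 mice lay between -1.66 and -0.68), the lowest mean of other endocrine genes (-3.10) and the highest acinar mean (2.13). It also had the lowest B cell (0.18), macrophage (0.93) and NK cell (0.88) means. At 12 weeks replicate 4 was highest and replicate 5 second for Cd3d, Cd3g, Lck, Lat, Zap70 and Cd247 A_52_P75298. What part these measures have in the order of the mice was not tested.

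The size of the ratios depended on the offset. An offset of 50 is added to every spot before the ratio is taken, which draws ratios of dim spots toward 0. With an offset of 1 the 20 week ratio was 4.14 in place of 3.24 for Cd3g, 4.13 in place of 3.36 for Cd3d, 3.69 in place of 2.97 for Lck and 3.21 in place of 2.25 for Lat. It was 2.73 in place of 1.62 for Cd247 A_52_P75298, 2.65 in place of 1.49 for Zap70 and 1.42 in place of 0.47 for Cd247 A_52_P173555. At 12 weeks Zap70 moved from 0.89 to 1.91 and Cd247 A_52_P75298 from 0.95 to 1.92, and both were then called, while Cd3g moved from 2.44 to 3.61 and Cd3d from 2.58 to 3.28. Zap70 and Cd247 thus had smaller ratios than Cd3d and Cd3g with either offset. On the scanner log ratio at 12 weeks Zap70 was 3.49 and Cd247 A_52_P75298 2.85, beside 3.79 for Cd3d and 4.33 for Cd3g. The 12 week Zap70 pool was never above background, so Zap70 cannot be ranked against the others at that age. Cd3e A_51_P455681 stayed low with either offset, at 0.32 in place of 0.18 at 12 weeks and 0.70 in place of 0.40 at 20 weeks.

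**Figure D4:**
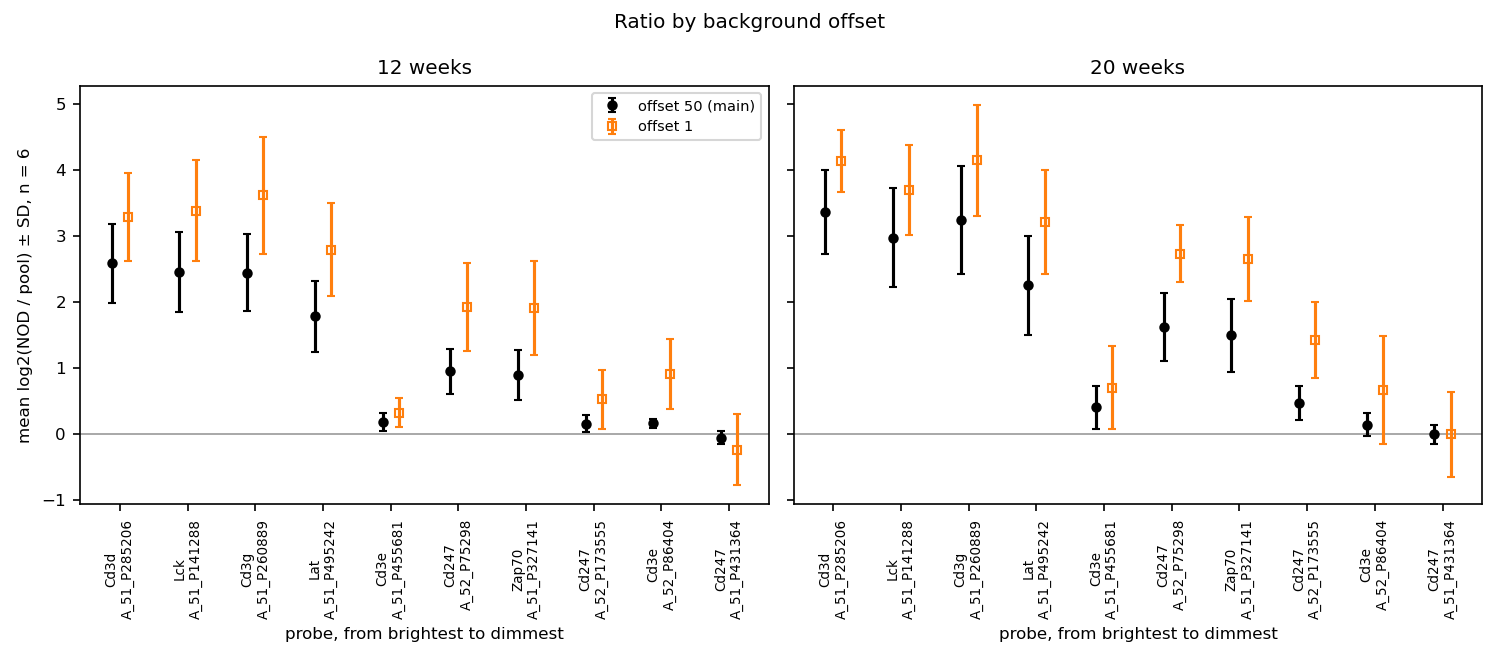
Mean log2(NOD/pool) ± SD (n = 6, vertical axis) of the 10 probes, from the brightest to the dimmest (horizontal axis), at 12 and 20 weeks, with a background offset of 50 (filled) and of 1 (open). At 20 weeks Zap70 lies at 1.49 with an offset of 50 and at 2.65 with an offset of 1.

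Genes that work beside the members were read from lists of known function. The TCR chain list gave none: its 11 names are not those of the array, which uses names such as Tcrb-J. Of 22 signalling partners, all measured, 0 were called at 10 days and at 4 weeks, 4 were called higher at 12 weeks and 10 at 20 weeks, where 2.09% and 3.87% of all genes were, and 0 were called lower at these ages (1.42% and 1.23% of all genes). Their median was 0.23 at 12 weeks and 0.62 at 20 weeks. Among those called at 12 weeks were Fyb, an adaptor for integrin activation (2.32 ± 0.54), Vav1, a guanine nucleotide exchange factor (1.28 ± 0.43), and Rhoh, a GTPase that helps Zap70 reach the receptor (1.02 ± 0.49). At 20 weeks Fyb (2.86 ± 0.86), the Tec family kinase Txk (2.20 ± 0.87) and Vav1 (1.73 ± 0.52) were among the highest. Lcp2 (SLP-76), the adaptor that joins Lat, was 0.84 at 12 weeks, under the floor, and 1.55 at 20 weeks. Some genes of this list and of lists below passed the filter of 6 arrays only through the 12 and 20 week arrays. Any call of such a gene is not independent of that filter.

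Of 17 negative regulators, 15 were measured. At 12 weeks 6 were called higher and at 20 weeks 6 (2.09% and 3.87% of all genes), with medians of 0.68 and 0.69. At these ages 0 were called lower (1.42% and 1.23% of all genes). The highest at 12 weeks were Ptprc, the phosphatase CD45 of all leukocytes (2.43 ± 0.51), Ptpn6, the phosphatase SHP-1 (1.64 ± 0.51), Sla, an adaptor that lowers receptor levels (1.59 ± 0.37), and Ptpn22, a phosphatase of Lck and Zap70 (1.58 ± 0.48). At 20 weeks they were Ptprc (3.13 ± 0.74), Ptpn22 (2.99 ± 0.78), Sla (2.68 ± 0.75) and the adaptor Dok2 (1.32 ± 0.39). Several of these, Ptprc and Ptpn6 among them, are expressed by other leukocytes as well.

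Of 8 coreceptors and T cell surface genes, 1 was called higher at 4 weeks (1.9% of all genes), 5 at 12 weeks (2.09%) and 7 at 20 weeks (3.87%). Cd8a and Cd8b1 passed the filter only through the 12 and 20 week arrays, so a call of either is not independent of it. The 1 at 4 weeks was the scavenger receptor family gene Cd6 (1.36 ± 0.40). At 12 weeks Cd5 (2.90 ± 0.45), Cd6 (2.69 ± 0.35), Thy1 (2.24 ± 0.27) and Cd7 (1.63 ± 0.41) were the highest, and at 20 weeks Cd5 (3.18 ± 0.81), Cd6 (3.11 ± 0.45), Cd8a (2.15 ± 0.50) and Thy1 (2.15 ± 0.50). Cd4, the coreceptor of helper T cells, was the 1 gene not called at 20 weeks, at 0.23.

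Some markers of other leukocytes were called higher at 12 and 20 weeks, where 2.09% and 3.87% of all genes were. Of 5 measured NK cell genes 3 were called higher at 12 and at 20 weeks, Nkg7 (2.57 ± 0.52 and 2.94 ± 0.58), Klrd1 (1.59 ± 0.59 and 2.24 ± 0.77) and Tyrobp (1.24 ± 0.31 and 1.76 ± 0.46), and Nkg7 and Klrd1 are expressed by cytotoxic T cells too. Of 6 measured B cell genes 3 were called higher at both ages, with Ms4a1 at 1.60 ± 0.83 and 2.07 ± 1.04. Of 7 macrophage genes 2 were called higher at 12 weeks and 4 at 20 weeks, led by Aif1 (2.11 ± 0.23) and Clec7a (3.04 ± 0.62). Of 6 measured mast cell and platelet genes, with a median of 0.01 at both ages, 0 and 2 were called higher, Kit (1.20 ± 0.44) and Pf4 (1.18 ± 0.44) at 20 weeks. Of the 2 measured genes of the thymocyte list 0 and 1 were called higher. The 1 was Cd1d1 (1.15 ± 0.63), which is not confined to thymocytes. NK cells express Cd247, Lck, Zap70 and Lat, and mast cells and platelets Lat, and what part such cells have in the members' ratios was not tested.

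The 3 genes nearest to each member were found by the root mean square difference of log2(NOD/pool) over the 24 arrays, as a description. Nearest to Cd3d were the probe the files name U07662 (0.30), Spn, the leukocyte sialoglycoprotein CD43 (0.33), and Tcrb-J (0.36), beside a median of 2.30 over all genes. Spn (0.20), U07662 (0.25) and Fyb (0.30) were nearest to Cd3g, and Nkg7 (0.38), Spn (0.44) and Cd5 (0.46) to Lck. Nearest to Zap70 were Pstpip1 (0.17), Cd8b1 (0.18) and Gimap9 (0.20), to Cd247 Lcp2 (0.21), H2-DMb2 (0.23) and Pstpip1 (0.24), and to Lat Klrd1 (0.28), Cd8a (0.29) and Itgax (0.29). Nearest to Cd3e A_51_P455681 were Bop1, Als2cl and Gm5292, each at 0.14 beside a median of 0.55 over all genes; none of these 3 is in the T cell lists.

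Cd3d and Cd3g are transcribed away from each other from start sites 1355 bases apart in RefSeq on GRCm38.p6, and their ratios moved together, so the 250 bases before each start site are given, 5′ to 3′ on the gene's strand. Capitals mark the ETS family motif GGAAGT, searched on both strands.
Cd3d, chr9:44981536-44981785, plus strand: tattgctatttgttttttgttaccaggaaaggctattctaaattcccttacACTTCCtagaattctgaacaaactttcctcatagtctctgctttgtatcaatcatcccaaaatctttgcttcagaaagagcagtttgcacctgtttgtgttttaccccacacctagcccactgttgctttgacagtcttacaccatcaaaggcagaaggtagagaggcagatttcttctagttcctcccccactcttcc
Cd3g, chr9:44980432-44980681, minus strand: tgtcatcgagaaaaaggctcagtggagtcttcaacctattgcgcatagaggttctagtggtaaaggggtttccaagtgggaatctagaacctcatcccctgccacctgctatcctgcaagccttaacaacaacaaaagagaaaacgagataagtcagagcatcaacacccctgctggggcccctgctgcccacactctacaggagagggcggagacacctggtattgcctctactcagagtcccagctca
The motif was found once before Cd3d, on the minus strand at position -199 from the start site, and not before Cd3g. It was found in 6 of the 10 windows listed for the 7 members (Cd247, Cd3d, Cd3e, both of Lck and 1 of 3 of Zap70), beside 19.7% of 32851 windows of the same length. The RUNX motif TGTGGT, which does not overlap it in these windows, was found in 2 of the 10 (1 of Lck and 1 of Zap70), beside 14% of all windows. Cd3e, which was not called, held the ETS motif, and Cd3g, Lat and the other 2 windows of Zap70 did not. These are matches of letters in 1 window and say nothing of binding.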

How the data were processed

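The values come from 24 scanner files of a two-colour array (Agilent 4×44K mouse), made with Feature Extraction 10.7.3.1. Per the file headers they hold the mean spot intensity and median background of each channel, with flags, and the deposited scanner log ratio is a log10 value. A deposited table of log2 ratios covers 22088 noncontrol probes, 7 of them members, whose scale is that of the scanner ratio (r of 0.9998 or higher); its columns were not centred (medians from -0.182 to 0.0868), and how its probes were chosen is not given in the sources used here.

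Spot intensities were analysed in R 4.3.3 with limma 3.58.1: normexp background correction with an offset of 50, loess within each array with control spots at weight 0, flagged spots set to missing (65 missing ratios), spots of a probe averaged. Of 41174 probes, 25910 were kept, those with a well above background flag in either channel on 6 or more arrays. A single limma model of the 4 age means took all 24 arrays, with Benjamini-Hochberg adjustment over all 25910 probes; a probe was called at an adjusted p under 0.05 and at least 2-fold, and the F test had no fold floor. The NOD channel alone was scaled by Aquantile after loess. A probe that all 6 arrays of an age put below background in 1 channel gets a bound ("at least"), the mean of the bright channel against the higher of the dim spot and the lowest signal above background. The number of arrays limits the precision; per the labels the 6 mice of an age are separate animals. Names were updated through RefSeq by accession for 27050 probes, by symbol for 4154 and by older symbol for 589, and 9381 kept the file's name. Other genes are given by their brightest probe (18071 genes). The model fit and the call rule were tested on simulated ratios with known changes at 12 weeks, and the steps before the fit were not.

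The members and lists were chosen with earlier results of these data known. All member probes are named; of each list up to 4 called genes per age by size are named, except 1 that is not reported here, and the 3 nearest genes of each member; Cd4 was named after its value was seen. Alternatives were median centring, the scanner ratio, the deposited table, no background correction, an offset of 1, no filter and a filter of 12 arrays, 1 probe per gene, no fold floor, replicate and slide blocks, and leaving out mice. Promoter windows are from RefSeq (GRCm38.p6), where all 7 genes matched, and probe coordinates are the files' (mm9).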

Additional observations from a re-analysis of the deposited data

Results flagged for a closer look

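Between ages, the ratio of 6 probes differed by the test of the contrast. From 4 to 12 weeks the difference in log2(NOD/pool) was 2.95 for Cd3d, 2.59 for Cd3g, 2.19 for Lck, 1.89 for Lat and 1.06 for Cd247 A_52_P75298. From 10 days to 20 weeks it was 3.34 for Cd3d, 3.13 for Cd3g, 2.48 for Lck, 2.14 for Lat, 1.43 for Cd247 A_52_P75298 and 1.24 for Zap70.

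In 2 of 40 combinations of probe and age 1 mouse lay far from the other 5, and chance gives such a gap in about 1 of 20. For Cd3d at 4 weeks it was replicate 5, at 0.11, with the other mice between -0.59 and -0.33. For Cd3e A_51_P455681 at 12 weeks it was replicate 2, at -0.09, with the other mice between 0.17 and 0.27.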

How the results depend on the processing

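No called ratio, at an age or between ages, changed sign under any alternative. In the NOD channel the sign of each probe was followed only in the fits that left out 1 mouse. The numbers of member probes called were equal to those reported or within 1.5 times, except as follows; the cause was not tested. Median centring, under which the median over all probes was 0.34, -0.12, 0.39 and -0.16 at the 4 ages, gave 1 call at 10 days (Lck), and in the NOD channel 2 from 10 days to 4 weeks and 1 from 12 to 20 weeks. The scanner log ratio gave 3 at 4 weeks (1 higher, 2 lower), 7 at 12 weeks, 1 from 10 days to 4 weeks, 8 from 4 to 12 weeks (7 higher, 1 lower) and, in the NOD channel from 10 days to 4 weeks, 5. The deposited table gave 3 at 4 weeks and 1 from 10 days to 4 weeks. An offset of 1 gave 1 at 4 weeks and 1 from 10 days to 4 weeks. No fold floor gave 1 and 1 there, 2 from 12 to 20 weeks, and 1 in the NOD channel from 12 to 20 weeks. Without 20 week replicates 5 and 6 there was 1 from 12 to 20 weeks.

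The NOD channel from 10 days to 4 weeks, where 1 probe (Cd3d, -1.48, adjusted p = 0.0495) was called, gave 2 without background correction, with an offset of 1 and with slide as a random block, and 0 without a filter, with slide as a fixed block and with the replicate block. Leaving out 1 mouse gave 0 to 2 there, 4 to 5 at 12 weeks and from 4 to 12 weeks, and 5 to 6 in the NOD channel from 10 days to 20 weeks; the other counts did not move. The replicate numbers do not pair the mice: across ages the correlation of same-numbered mice was between -0.40 and 0.62 (median -0.10, 36 pairs), and in 11 of 72 comparisons a mouse correlated best with its own number. The replicate block gave the reported count in every other comparison. The slide's consensus correlation was -0.09 for the ratio. Depth limits Zap70, Cd247 and Cd3e A_52_P86404, whose pool spots were at or below background at some ages.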
